A study of Mus musculus with 8 samples.

Results

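Integrins are receptors made of an α and a β chain that tie cells to the matrix or to other cells, and laminins are trimers of an α, a β and a γ chain that form the mesh of basement membranes and serve several integrins as ligands. The 37 genes described here are all mouse genes whose symbols name an integrin α or β subunit or a laminin chain, matched from Ensembl identifiers and found in the count tables of both cell lines, out of 30731 genes that the tables share. They comprise 18 integrin α subunits, 8 integrin β subunits, 5 laminin α chains, 3 laminin β chains and 3 laminin γ chains. Membership went by name and not by values, but the group was chosen with earlier results of these data known. Genes with similar names that are not subunits, such as Itgbl1, were left out.

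The study followed the folding of the genome under TCF-1, an HMG-box DNA-binding factor of early T cells encoded by Tcf7, and RNA was sequenced from 4 groups, each with 2 libraries. The fibroblast line NIH-3T3, derived from mouse embryos, was compared with TCF-1 induced (genotype Tcf7 induced) and as normal cells (wild type, untreated). Scid.adh, a thymic lymphoma line used as a model of thymocytes at the double-negative 3 (DN3) stage, was compared as a Tcf7-/- knockout and as wild-type cells with an empty vector. Per the file headers, all 3T3 libraries, normal and induced, carry Cas9, empty LRG21, pIND21, P33 and 72 hours in their names. What pIND21 and P33 stand for is not given there. The induced libraries also carry dox, so an effect of doxycycline and an effect of TCF-1 cannot be told apart. Neither the use of clones or pools nor separate culture of the libraries in a group is given in the sources used here. The p-values therefore rest on a spread between libraries that may be technical alone. Total counts over genes were 16857868 and 13850213 in induced 3T3 cells, 16174002 and 17523677 in normal 3T3 cells, 7740198 and 8217933 in knockout cells and 10392402 and 9847239 in empty-vector cells. Values below are CPM (counts scaled to a common library size) after TMM adjustment between the libraries of a line, and CPM per kb of exon where genes are compared with each other.

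Tcf7 stood at 946 and 972 CPM in induced 3T3 cells, against 14.5 and 14.6 CPM in normal cells. In the Scid.adh line the gene was at 646 and 624 CPM in the knockout, against 1318 and 1325 CPM with the empty vector, which is 2.08-fold lower. Which stretch was deleted is not given in the sources used here, and RNA from a broken gene would still be counted. All 8 fibroblast markers (Col1a1, Col1a2, Col3a1, Pdgfra, Pdgfrb, Dcn, Lum and Fn1) were at 1 CPM or more in every 3T3 library, and all 9 T lineage markers (Cd3e, Cd3d, Cd3g, Ptcra, Lck, Cd2, Il2ra, Rag1 and Cd28) in every Scid.adh library.

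In thymocytes, integrins hold precursors to stromal fibronectin, laminin and VCAM-1 while they move through the thymus, and the β2 and β7 families are largely restricted to blood cells. In fibroblasts, the fibronectin receptor α5β1, the αv integrins and the collagen receptor α11β1 anchor the cell to the matrix it makes. A β chain has a limited set of partners, and β1 has the most, so the RNA of both chains sets which receptors a cell can assemble, although RNA does not show that a pair reaches the surface.

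TCF-1 binds DNA through a short motif. Promoter windows are shown for the largest fall in each line and for 2 members whose window holds that motif. RefSeq windows of GRCm38.p6 from 250 bases before to 50 bases after a gene's start were available for 23 of the 37 members, in 26 windows. The TCF/LEF core CTTTGA, searched on both strands, lay in 16% of all 32851 windows and in 5 of the 26 member windows, those of Itga1, Itga10, Itgam, Lama2 and Lamb2. The RUNX core TGTGGT, searched on both strands and neither containing nor contained in the TCF/LEF core, lay in 16.8% of all windows and in 3 member windows, those of Itga3, Itga4 and Itgax. Itga8 (chr2:12301895-12302194, minus strand) held the largest fall in 3T3, and Itgb6 (chr2:60722554-60722853, minus strand, the upstream of 2 listed starts) the largest fall in Scid.adh. Lama2 (chr10:27616893-27617192, minus strand) and Itgam (chr7:128062390-128062689, plus strand) were picked after their values were seen, because their windows hold the TCF/LEF core. Itga7 and Itgae, the largest rises in 3T3 and Scid.adh among members with a mean of 5 CPM or more, had no window and are named only. Capitals mark the TCF/LEF core on either strand (TCAAAG is its reverse complement).
Itga8: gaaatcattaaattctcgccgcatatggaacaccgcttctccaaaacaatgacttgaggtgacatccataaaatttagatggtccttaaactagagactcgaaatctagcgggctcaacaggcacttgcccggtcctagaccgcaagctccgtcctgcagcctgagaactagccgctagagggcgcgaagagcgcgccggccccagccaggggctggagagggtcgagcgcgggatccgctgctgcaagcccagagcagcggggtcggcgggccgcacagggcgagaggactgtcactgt
Itgb6: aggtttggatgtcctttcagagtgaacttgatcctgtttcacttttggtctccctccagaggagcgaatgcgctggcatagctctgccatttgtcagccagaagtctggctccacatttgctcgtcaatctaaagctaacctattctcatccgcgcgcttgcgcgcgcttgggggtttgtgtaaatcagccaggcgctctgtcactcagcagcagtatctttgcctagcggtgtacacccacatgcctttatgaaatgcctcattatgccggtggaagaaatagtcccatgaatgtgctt
Lama2: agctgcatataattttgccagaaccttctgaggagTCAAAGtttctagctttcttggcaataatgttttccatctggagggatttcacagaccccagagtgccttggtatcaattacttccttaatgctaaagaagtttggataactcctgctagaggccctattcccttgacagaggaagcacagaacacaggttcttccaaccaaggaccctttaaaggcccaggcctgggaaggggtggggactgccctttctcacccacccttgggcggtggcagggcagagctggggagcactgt
Itgam: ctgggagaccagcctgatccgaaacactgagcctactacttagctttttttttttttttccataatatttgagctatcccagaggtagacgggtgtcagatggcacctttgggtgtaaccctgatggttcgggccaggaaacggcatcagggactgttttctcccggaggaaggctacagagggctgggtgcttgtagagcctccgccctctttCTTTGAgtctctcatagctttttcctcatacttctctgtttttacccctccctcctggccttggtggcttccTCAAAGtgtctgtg
The Lama2 window has the core on its reverse strand, 215 bases before the RefSeq start. That window lies inside the GENCODE M21 gene model of Lama2 (chr10:26980036-27619758), which begins further upstream. The Itgam window has the core 36 bases before the start on the forward strand and 36 bases after it on the reverse strand. The windows of Itga8 and Itgb6 hold neither core. A match is a run of letters and not a shown binding site.

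**Figure D1:**
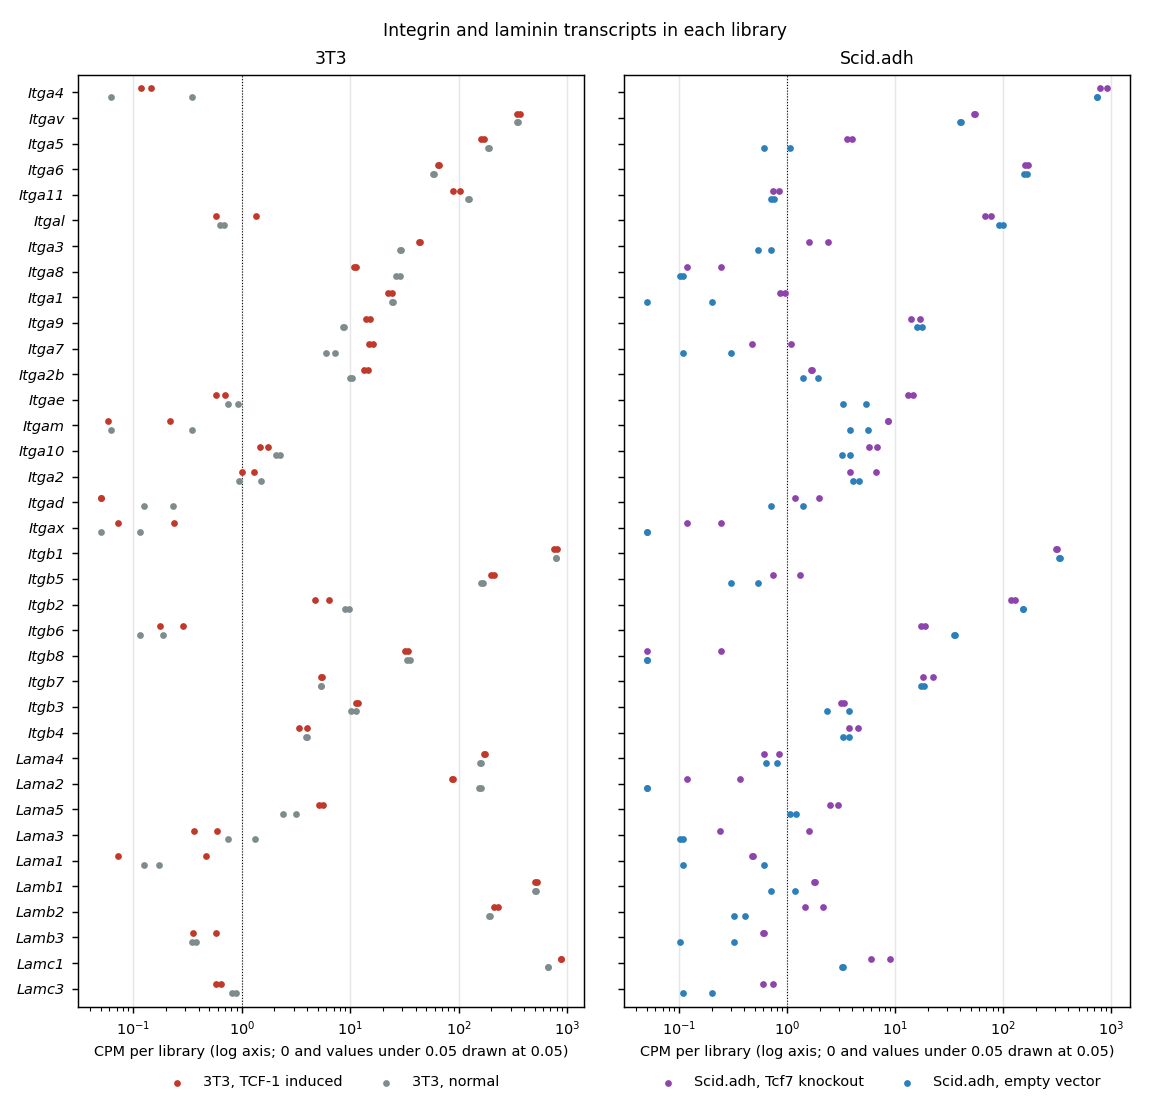
CPM of members in each library (log axis, 1 point per library; the dotted line marks 1 CPM), with 3T3 on the left and Scid.adh on the right. Itgb1 was high in both lines at 308 to 808 CPM, Itga4 stood at 739 to 925 CPM in Scid.adh and at 0.0626 to 0.345 CPM in 3T3, and Lamc1 at 665 to 880 CPM in 3T3 and at 3.22 to 9 CPM in Scid.adh.

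The lines drew on different α chains around a shared β1. Of 24 known αβ pairs, both chains reached 1 CPM in both libraries for 16 pairs in induced and 15 in normal 3T3 cells, and for 17 pairs in knockout and 14 in empty-vector Scid.adh cells. Pairs with β1 made up 11, 10, 8 and 6 of these in the same order of groups, of 12 listed. At a threshold of 5 CPM the pairs numbered 13 and 13 in 3T3, and 10 in knockout and 7 in empty-vector Scid.adh cells. Levels of the 2 lines were not tested against each other, since each line had its own table of genes.

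In 3T3 the chains of matrix receptors led. Itgb1, the common β chain, averaged 191 CPM per kb in induced and 193 in normal cells and made 74% and 77.3% of the summed β chains. Itgb5, a partner of αv in vitronectin receptors, made 22.4% of β chains in induced and 18.5% in normal cells. Itga5, the α chain of the main fibronectin receptor, made 30.5% of α chains in induced and 32.8% in normal cells, and Itgav made 30% and 28.1%. These α chains were followed by the collagen receptor Itga11 with 17% in induced and 20.6% in normal cells. The laminin receptors Itga3 and Itga6 followed, with 6.91% and 6.52% in induced cells, against 4.41% and 5.59% in normal cells. By the less abundant chain, α5β1 stood first with 33.6 CPM per kb in induced and 37.8 in normal cells, then αvβ1 and αvβ5 with 33 and 32.5, then α11β1 with 18.7 and 23.8. The first places depend on the length used: per kb of the longest transcript, αvβ1 stood at 50.2 in induced and 49.4 in normal cells and α5β1 at 37.5 and 42.3. The collagen receptor α2β1 had both chains at 1 CPM in both libraries in induced cells and not in normal cells, but Itga2 differed little, with 1.3 and 1.01 CPM in induced cells, against 0.938 and 1.49 in normal cells.

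In Scid.adh the chains of α4β1 led. Itga4, which with β1 binds fibronectin and VCAM-1, made 57.5% of α chains in knockout and 55.5% in empty-vector cells. Itga6, a laminin receptor chain, made 17.2% in knockout and 18.7% in empty-vector cells, and Itgal, the α chain of LFA-1 that binds ICAMs, 10.3% and 15.3%. Among β chains, Itgb1 made 59.5% in knockout and 56.5% in empty-vector cells and Itgb2, the leukocyte β chain, 31.7% and 34.8%. The pair α4β1 stood first with 61.4 CPM per kb of its less abundant chain in knockout and 53 in empty-vector cells, and it was first by longest transcript too, with 81.2 and 75.8. The pair α6β1 followed with 18.4 in knockout and 17.8 in empty-vector cells, then αLβ2 with 11 and 14.6, and the gut-homing receptor α4β7 with 7.27 and 6.41. The less abundant chain of αvβ6 was Itgb6 in knockout cells, at 2.54 CPM per kb, and Itgav in empty-vector cells, at 3.74. The pairs α3β1, α5β1 and αDβ2 reached the threshold of 1 CPM in both knockout libraries and not in both empty-vector libraries, with their α chain at 0.346, 0.768 and 0.347 CPM per kb there and 0.109, 0.169 and 0.232 with the empty vector. For α5β1 and αDβ2 this turned on empty-vector replicate 1, since Itga5 had 1.07 and Itgad 1.39 CPM in replicate 2, and without replicate 1 the empty-vector pairs numbered 16.

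**Figure D2:**
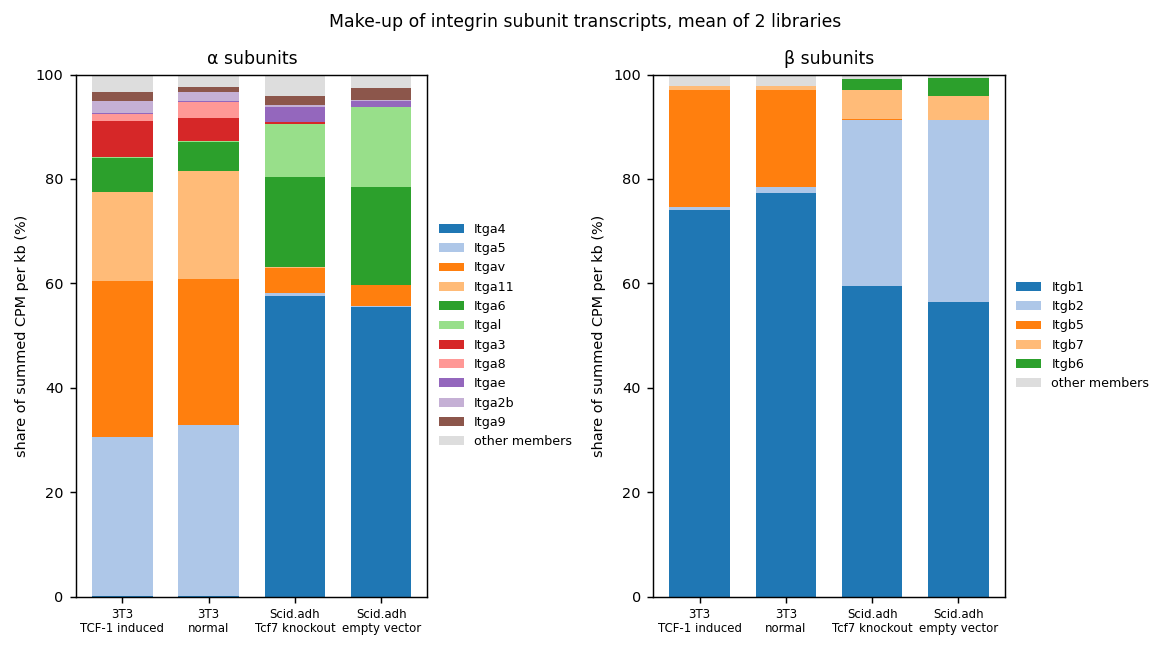
Share of each integrin subunit in the summed CPM per kb of its family (α left, β right), as the mean of 2 libraries per group, in percent; members under 2% in every group are drawn together. Itga5 and Itgav each held 28.1% to 32.8% of α chains in 3T3, and Itga4 held 57.5% in knockout and 55.5% in empty-vector Scid.adh cells.

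**Figure D3:**
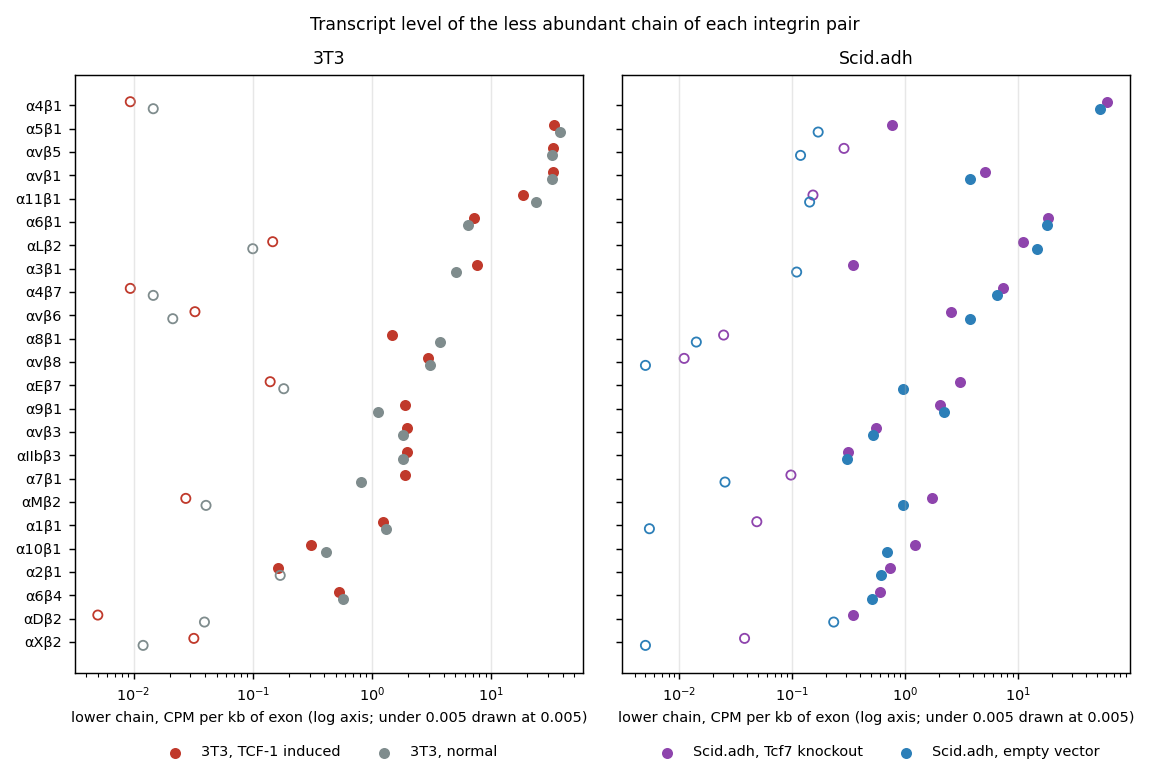
Level of the less abundant chain of each of 24 integrin pairs, in CPM per kb of exon on a log axis, with 3T3 on the left and Scid.adh on the right. Filled points mark pairs with both chains at 1 CPM or more in both libraries, which were 16 and 15 in induced and normal 3T3 cells and 17 and 14 in knockout and empty-vector Scid.adh cells.

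With TCF-1 induced in 3T3, α chains were called in both directions while Itgb1 did not pass the test. Of the 37 members, 30 passed the filter on low counts and were tested, 10 rose (Itga2b, Itga3, Itga6, Itga7, Itga9, Itgb5, Lama4, Lama5, Lamb2 and Lamc1), 5 fell (Itga5, Itga8, Itga11, Itgb2 and Lama2) and 15 did not pass an adjusted p of 0.05. Of all 18185 genes tested in 3T3, 36.8% were called, against 50% of the tested members, with 18.5% of all genes higher and 18.3% lower. The median log2 fold change was 0.01 over the tested members and 0.00 over all genes. A test against a change of 1.5-fold left 1 rise (Itga7) and 2 falls (Itga8 and Lama2), beside 5.04% of all genes (2.64% higher and 2.4% lower). Of the tested members, 4 passed the filter through normal cells alone (Itgae, Itgal, Lama3 and Lamc3), so counts over tested members are not counts over all. Libraries of the groups did not overlap for 23 of the 30 tested members and for 65.1% of all tested genes. In bulk RNA, fewer cells with a transcript and less transcript per cell cannot be told apart.

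Among the laminin receptors of 3T3, 3 α chains rose. Itga7 (chr10:128933818-128958282, plus strand, GRCm38), the laminin receptor of skeletal muscle, had 16.2 and 14.8 CPM in induced cells, against 6.01 and 7.24 CPM in normal cells. It had the largest rise among the members, with a log2 fold change of 1.22 (SE 0.12, n = 2 libraries per group, adjusted p = 1.49e-11 by edgeR's quasi-likelihood test), or 2.34-fold. Itga3, a receptor for laminins of epithelia and other tissues, had 43.3 and 43.5 CPM in induced cells, against 29.5 and 28.6 CPM in normal cells. Its log2 fold change was 0.58 (SE 0.07, adjusted p = 2.41e-09), and the groups were far apart next to the spread within them. Itga6 rose by 0.15 (SE 0.06, adjusted p = 0.031), with 64.2 and 65.2 CPM in induced cells, against 57.8 and 58.7 CPM in normal cells. That call was lost without induced replicate 2 (adjusted p = 0.0529), without normal replicate 1 (0.242) or 2 (0.157), in DESeq2 (0.196), without the filter on low counts (0.0604) and in the joint fit of 8 libraries (0.128). Itgb4, the partner of α6 in epithelial hemidesmosomes, had 4.01 and 3.39 CPM in induced cells, against 3.94 and 4.02 CPM in normal cells, which overlap (adjusted p = 0.745).

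Among the receptors for fibronectin and other RGD ligands, one α chain lost more than any other member. Itga8 (chr2:12106632-12301922, minus strand), whose pair with β1 binds nephronectin and fibronectin, had 10.7 and 11.2 CPM in induced cells, against 26.1 and 28.8 CPM in normal cells. It fell by 1.33 on the log2 scale (SE 0.10, adjusted p = 1.02e-15), which is 2.52-fold lower. Itga5 (chr15:103344286-103366763, minus strand), the abundant fibronectin receptor chain, had 172 and 159 CPM in induced cells, against 188 and 185 CPM in normal cells. This small fall of 0.17 in log2 (SE 0.04, adjusted p = 0.00119) was no longer called without normal replicate 1 (adjusted p = 0.0642). Itgb5 had 212 and 200 CPM in induced cells, against 167 and 161 CPM in normal cells, a rise of 0.33 (SE 0.04, adjusted p = 7.06e-09). Its α partner Itgav had 343 and 365 CPM in induced cells, against 345 and 352 CPM in normal cells, and the groups overlapped (adjusted p = 0.711). Itgb3, another αv partner, had 11.4 and 11.7 CPM in induced cells, against 10.1 and 11.3 CPM in normal cells (adjusted p = 0.538). Itgb8, which with αv binds latent TGF-β, had 32 and 33.9 CPM in induced cells, against 33.2 and 35.2 CPM in normal cells (adjusted p = 0.592). Itga2b, known as the platelet fibrinogen receptor chain αIIb, had 14.7 and 13.5 CPM in induced cells, against 10.4 and 9.94 CPM in normal cells, a rise of 0.48 (SE 0.11, adjusted p = 5.00e-04). Of the 4 other megakaryocyte markers, Gp1bb stood at 33.5 to 37 CPM, Pf4 and Gp9 at 0.25 CPM or less, and Ppbp at 0.883 and 0.432 CPM in induced cells, against 0.313 and 0.0574 CPM in normal cells. These 4 summed to 38 and 37.6 CPM in induced cells, against 35.8 and 33.8 CPM in normal cells. Their part in the Itga2b rise was not tested.

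Of the collagen receptor chains in 3T3, Itga11 fell. Itga11, the fibrillar collagen receptor of fibroblasts, had 103 and 89.2 CPM in induced cells, against 123 and 122 CPM in normal cells, a log2 fold change of -0.34 (SE 0.05, adjusted p = 3.34e-07). Itga1 had 22.1 and 24.3 CPM in induced cells, against 24.4 and 24.6 CPM in normal cells, and did not pass the test (adjusted p = 0.478). Itga10, a cartilage collagen receptor, had 1.47 and 1.73 CPM in induced cells, against 2.06 and 2.24 CPM in normal cells (adjusted p = 0.218). Itga9, which with β1 binds tenascin-C and VCAM-1, rose by 0.75 on the log2 scale (SE 0.11, adjusted p = 5.65e-07), with 15.1 and 13.9 CPM in induced cells, against 8.82 and 8.5 CPM in normal cells. Itgb1 had 753 and 808 CPM in induced cells, against 788 and 788 CPM in normal cells, and its log2 fold change was -0.01 (SE 0.03, adjusted p = 0.777). Without induced replicate 2 the value was -0.07 and passed (adjusted p = 0.0261), so whether it is called turns on that library.

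Leukocyte chains were low in 3T3. Itgb2 had 6.42 and 4.69 CPM in induced cells, against 9.7 and 8.85 CPM in normal cells, and fell by 0.72 on the log2 scale (SE 0.15, adjusted p = 8.47e-05). None of its α partners was called: Itgal stood at 0.577 to 1.35 CPM, and Itgam, Itgax and Itgad were too low to be tested. Itgb7, partner of α4 and αE, stood at 5.34 to 5.48 CPM over all 3T3 libraries (adjusted p = 0.938). The summed CPM of 8 myeloid markers was 24.4 and 23.4 in induced cells, against 16.1 and 16.9 in normal cells, with 2 of 8 at 1 CPM or more (Cd14 and Csf1r) and Adgre1 at 0. Cd14 had 14 and 14.1 CPM in induced cells, against 5.38 and 6.43 CPM in normal cells, and the 6 markers other than Cd14 and Itgam summed to 10.4 and 9.15 CPM in induced cells, against 10.6 and 10.1 CPM in normal cells. Their part in the Itgb2 value was not tested. Itga2, Itgae and Lamc3 were tested at 0.577 to 1.49 CPM and did not pass. The 7 members too low to be tested in 3T3 (Itga4, Itgad, Itgam, Itgax, Itgb6, Lama1 and Lamb3) reached at most 0.577 CPM in any library.

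The laminin chains of 3T3 changed in opposite directions around a shared γ1. Lama2 (chr10:26980036-27619758, minus strand), the α chain of muscle and nerve laminin, had 87.1 and 88.9 CPM in induced cells, against 154 and 160 CPM in normal cells. It fell by 0.84 on the log2 scale (SE 0.05, adjusted p = 6.64e-20), or 1.79-fold. Lama5, the α chain of many mature basement membranes, had 5.65 and 5.12 CPM in induced cells, against 3.13 and 2.41 CPM in normal cells, a rise of 0.97 (SE 0.19, adjusted p = 5.29e-05). Lama4, the α chain of vessel and mesenchymal laminin, had 170 and 173 CPM in induced cells, against 160 and 158 CPM in normal cells, a rise of 0.11 (SE 0.04, adjusted p = 0.032). The Lama4 call was lost without normal replicate 1 (adjusted p = 0.194) or 2 (0.307), in DESeq2 (0.146), without the low-count filter (0.0689) and in the joint fit (0.224). Lamc1 (chr1:153218922-153332786, minus strand), the γ chain of most laminins, had 880 and 876 CPM in induced cells, against 665 and 670 CPM in normal cells, a rise of 0.40 (SE 0.03, adjusted p = 9.17e-15). Lamb2 had 228 and 212 CPM in induced cells, against 192 and 191 CPM in normal cells, a rise of 0.20 (SE 0.04, adjusted p = 7.67e-05). Lamb1, the more abundant β chain per kb (52.3 CPM per kb in induced and 51.5 in normal cells, against 36.2 and 31.5 for Lamb2), had 530 and 508 CPM in induced cells, against 514 and 507 CPM in normal cells (adjusted p = 0.616). Lama3, an epithelial laminin α chain, had 0.589 and 0.36 CPM in induced cells, against 1.31 and 0.747 CPM in normal cells (adjusted p = 0.0608), and passed without normal replicate 2 (0.0469).

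Of 14 known laminin trimers, 6 had all chains at 1 CPM in both libraries of both 3T3 groups. These were laminins 211, 221, 411, 421, 511 and 521, so γ1 was part of each. The α chain was the least abundant in all 6. Lama4 stood at 14.2 CPM per kb in induced and 13.2 in normal cells, Lama2 at 5.39 and 9.63, and Lama5 at 0.473 and 0.243. The share of Lama4 in laminin α chains was 70.6% in induced and 56.9% in normal cells, that of Lama2 26.7% and 41.6%, and that of Lama5 2.35% and 1.05%.

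**Figure D4:**
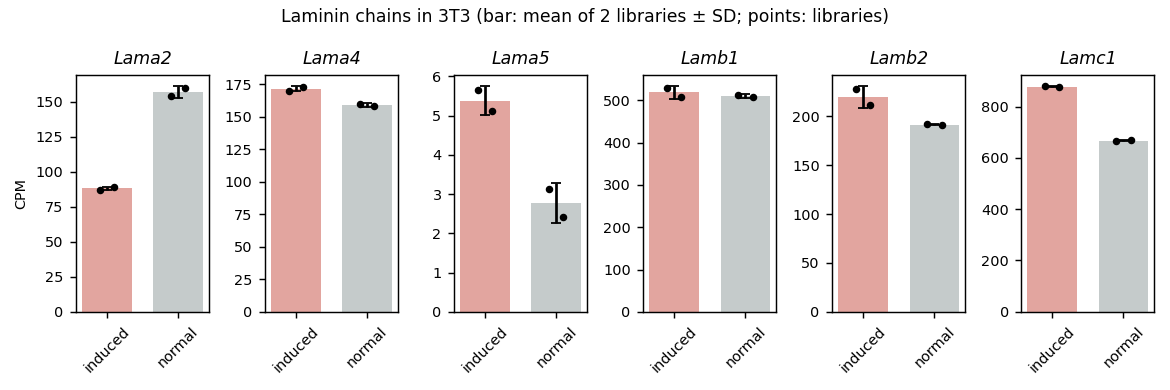
CPM of 6 laminin chains in 3T3 (bars are means of 2 libraries with SD, points are libraries, each axis starts at 0). Lama2 was lower in induced cells, at 87.1 and 88.9 CPM against 154 and 160 CPM in normal cells, while Lamc1 was higher, at 880 and 876 CPM against 665 and 670 CPM.

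Knockout of Tcf7 in Scid.adh was followed by calls among lymphocyte, αv and low-level matrix receptor chains, with falls in LFA-1 and in Itgb6. Of the 37 members, 24 were tested, 10 rose (Itga3, Itga4, Itga5, Itga10, Itgae, Itgam, Itgav, Lama5, Lamb2 and Lamc1), 3 fell (Itgal, Itgb2 and Itgb6) and 11 did not pass. Of all 11941 genes tested in Scid.adh, 31.5% were called, against 54.2% of the tested members, with 15.6% of all genes higher and 15.9% lower. Libraries of the groups did not overlap for 17 of 24 members and 66.7% of all genes. Against a change of 1.5-fold, Itga5, Itgae and Lamb2 rose and Itgb6 fell, beside 6.06% of all genes (4.73% higher and 1.33% lower). Only 17 members passed the filter in both groups, 6 of which rose and 3 of which fell. The other 7, with Itga3, Itga5, Itgad, Lama5, Lamb1 and Lamb2 among them, passed through the knockout libraries alone, so their rises were favoured by the filter. The 31.5% over all genes also covers genes that passed through a single group, so it is not the matching share for the 17. Leaving out empty-vector replicate 2 gave 4 rises, and leaving out empty-vector replicate 1 gave 6, while rises over all genes numbered 1180 and 1059, against 1861 with all libraries. DESeq2 gave 4 rises among the members and 880 over all genes.

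The chains of α4β1 and α6β1, the leading pairs of Scid.adh, changed by at most 0.21 in log2. Itga4 (chr2:79255426-79333123, plus strand) had 791 and 925 CPM in knockout cells, against 743 and 739 CPM with the empty vector. Its log2 fold change of 0.21 (SE 0.07, adjusted p = 0.0355) was no longer called without empty-vector replicate 1 (adjusted p = 0.269) or 2 (0.282), in DESeq2 (0.0565) or without the low-count filter (0.165). Itgb1 had 312 and 308 CPM in knockout cells, against 329 and 337 CPM with the empty vector. The Itgb1 groups do not overlap but did not pass (log2 fold change -0.10, SE 0.06, adjusted p = 0.208), except without knockout replicate 1 (adjusted p = 0.0285). Itga6 had 160 and 171 CPM in knockout cells, against 156 and 165 CPM with the empty vector, which overlap (adjusted p = 0.665). Itga9 had 16.9 and 14.1 CPM in knockout cells, against 17.7 and 15.9 CPM with the empty vector (adjusted p = 0.612). Itgb7 had 22.3 and 18 CPM in knockout cells, against 17.2 and 18.3 CPM with the empty vector (adjusted p = 0.392).

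LFA-1 was lower in both chains. Itgal had 68.2 and 76.8 CPM in knockout cells, against 91.6 and 99.8 CPM with the empty vector, a fall of 0.40 in log2 (SE 0.09, adjusted p = 0.00437). Itgb2 had 128 and 119 CPM in knockout cells, against 153 and 153 CPM with the empty vector, a fall of 0.31 (SE 0.07, adjusted p = 0.00505). The summed CPM of the 9 T lineage markers was 2679 and 2726 in knockout cells, against 3619 and 3565 with the empty vector. Cd28 alone was higher in the knockout, at 63.6 and 64.1 CPM, against 39.2 and 38.8 CPM with the empty vector. Cd3d overlapped, with 92.7 and 86.9 CPM in knockout cells, against 102 and 92.1 CPM with the empty vector. The part of these markers in the Itgal and Itgb2 values was not tested. Itgam, the α chain of Mac-1 on myeloid cells, had 8.51 and 8.66 CPM in knockout cells, against 5.64 and 3.84 CPM with the empty vector, a rise of 0.85 (SE 0.25, adjusted p = 0.0208). That call was lost without empty-vector replicate 2 (log2 fold change 0.59, adjusted p = 0.165) and in DESeq2 (0.0912), and 68.7% of the exon bases of Itgam are shared with the overlapping gene model Gm49368 on the same strand. The 7 other myeloid markers summed to 3.53 and 3.09 CPM in knockout cells, against 4.53 and 2.78 CPM with the empty vector. Spi1, the myeloid factor among them, stood at 2.07 and 1.31 CPM in knockout cells, against 2.62 and 1.82 CPM with the empty vector, and Lyz2, Adgre1, Mpo and Cd14 at 0.356 CPM or less. Itgad, αD, stood at 16 and 10 counts in knockout cells, against 7 and 13 counts with the empty vector (adjusted p = 0.377), and Itgax stood at 2 counts or fewer in each library.

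Itgae was higher and Itgb6 lower in the knockout. Itgae (chr11:73090583-73147446, plus strand), the chain that with β7 binds E-cadherin, had 14.6 and 13.1 CPM in knockout cells, against 5.34 and 3.31 CPM with the empty vector. This 3.17-fold rise (log2 1.67, SE 0.24) had an adjusted p of 3.07e-04. Itgb6 (chr2:60598292-60722643, minus strand), an αv partner of epithelia that activates TGF-β, had 18.8 and 17.3 CPM in knockout cells, against 36.1 and 35.3 CPM with the empty vector. It fell by 0.98 (SE 0.13, adjusted p = 1.35e-04), or 1.97-fold. Itgav had 53.7 and 54.7 CPM in knockout cells, against 40.8 and 39.6 CPM with the empty vector, a rise of 0.43 (SE 0.10, adjusted p = 0.00479). The 6 epithelial markers summed to 5.72 and 3.8 CPM in knockout cells, against 4.94 and 4.91 CPM with the empty vector, with Krt14 at 0. Of these 6, 4 were higher in the knockout without overlap (Epcam, Krt8, Krt18 and Krt5), the highest of them Krt8 with 2.07 and 2.37 CPM in knockout cells, against 1.31 and 1.49 CPM with the empty vector. Cdh1, E-cadherin, had 1.95 and 0.356 CPM in knockout cells, against 3.22 and 2.88 CPM with the empty vector. The part of these markers in the Itgae and Itgb6 values was not tested. In the test against 1.5-fold, Itgae had an adjusted p of 0.00447 and Itgb6 of 0.0209.

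Some fibronectin, collagen and laminin receptor chains of low level were higher in the knockout. Itga5 had 4.01 and 3.56 CPM in knockout cells, against 0.604 and 1.07 CPM with the empty vector, 4.5-fold more (log2 fold change 2.17, SE 0.40, adjusted p = 0.00168). Itga3 had 1.58 and 2.37 CPM in knockout cells, against 0.705 and 0.534 CPM with the empty vector, a rise of 1.65 (SE 0.47, adjusted p = 0.017). Its call was lost without knockout replicate 2 (adjusted p = 0.159), without empty-vector replicate 1 (0.0778) or 2 (0.14) and in DESeq2 (0.159). Itga10 had 6.81 and 5.7 CPM in knockout cells, against 3.22 and 3.84 CPM with the empty vector, a rise of 0.82 (SE 0.27, adjusted p = 0.035). The Itga10 call was lost without knockout replicate 1 (adjusted p = 0.124), without empty-vector replicate 1 (0.198) or 2 (0.0708), in DESeq2 (0.167) and without the low-count filter (0.0628). Itga10 shares 33.5% of its exon bases with the gene model Gm42957 on the same strand. Itga2, another collagen receptor chain, had 6.57 and 3.8 CPM in knockout cells, against 4.03 and 4.59 CPM with the empty vector, which overlap (adjusted p = 0.547). Itga1 was too low to be tested, with 7 and 8 counts in knockout cells, against 2 and 0 with the empty vector.

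Laminin RNA was scarce in Scid.adh. Lamc1 had 9 and 5.93 CPM in knockout cells, against 3.22 and 3.31 CPM with the empty vector, a rise of 1.19 (SE 0.29, adjusted p = 0.00774), or 2.28-fold. Lama5 had 2.92 and 2.49 CPM in knockout cells, against 1.21 and 1.07 CPM with the empty vector, a rise of 1.24 (SE 0.38, adjusted p = 0.0262). That call was lost without knockout replicate 1 (adjusted p = 0.121), without empty-vector replicate 1 (0.12) or 2 (0.164), in DESeq2 (0.193) and without the low-count filter (0.0526). Lamb2 had 12 and 18 counts in knockout cells, against 4 and 3 counts with the empty vector (log2 fold change 2.27, SE 0.52, adjusted p = 0.00548). It was not called without knockout replicate 2 (adjusted p = 0.0555), without empty-vector replicate 2 (0.0598) or in DESeq2 (0.078). Of the 14 trimers, laminins 511 and 521 had all chains at 1 CPM in both knockout libraries, and no trimer did with the empty vector. Lamb1 had 1.82 and 1.78 CPM in knockout cells, against 0.705 and 1.17 CPM with the empty vector (adjusted p = 0.12). For laminin 511 the difference turned on Lamb1 in empty-vector replicate 1, since Lama5 and Lamc1 reached 1 CPM in both empty-vector libraries. The 8 fibroblast markers summed to 11.8 and 11.2 CPM in knockout cells, against 122 and 127 CPM with the empty vector. Without Pdgfrb, the other 7 summed to 7.42 and 7.36 CPM in knockout cells, against 2.01 and 1.6 CPM with the empty vector. Of these 7 markers, 5 were higher in the knockout without overlap (Col1a1, Col1a2, Col3a1, Pdgfra and Fn1), and Pdgfrb alone went the other way, with 4.38 and 3.8 CPM in knockout cells, against 120 and 125 CPM with the empty vector. Their part in the rises of Itga3, Itga5, Lama5, Lamb2 and Lamc1 was not tested. The 13 members not tested in Scid.adh (Itga1, Itga7, Itga8, Itga11, Itgax, Itgb5, Itgb8, Lama1, Lama2, Lama3, Lama4, Lamb3 and Lamc3) reached at most 1.58 CPM in any library. That maximum was Lama3 in knockout replicate 1, with 13 counts there, 2 in the other knockout library and 1 in each empty-vector library. Itga2b, Itgb3 and Itgb4 were tested at 1.39 to 4.51 CPM and did not pass.

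**Figure D5:**
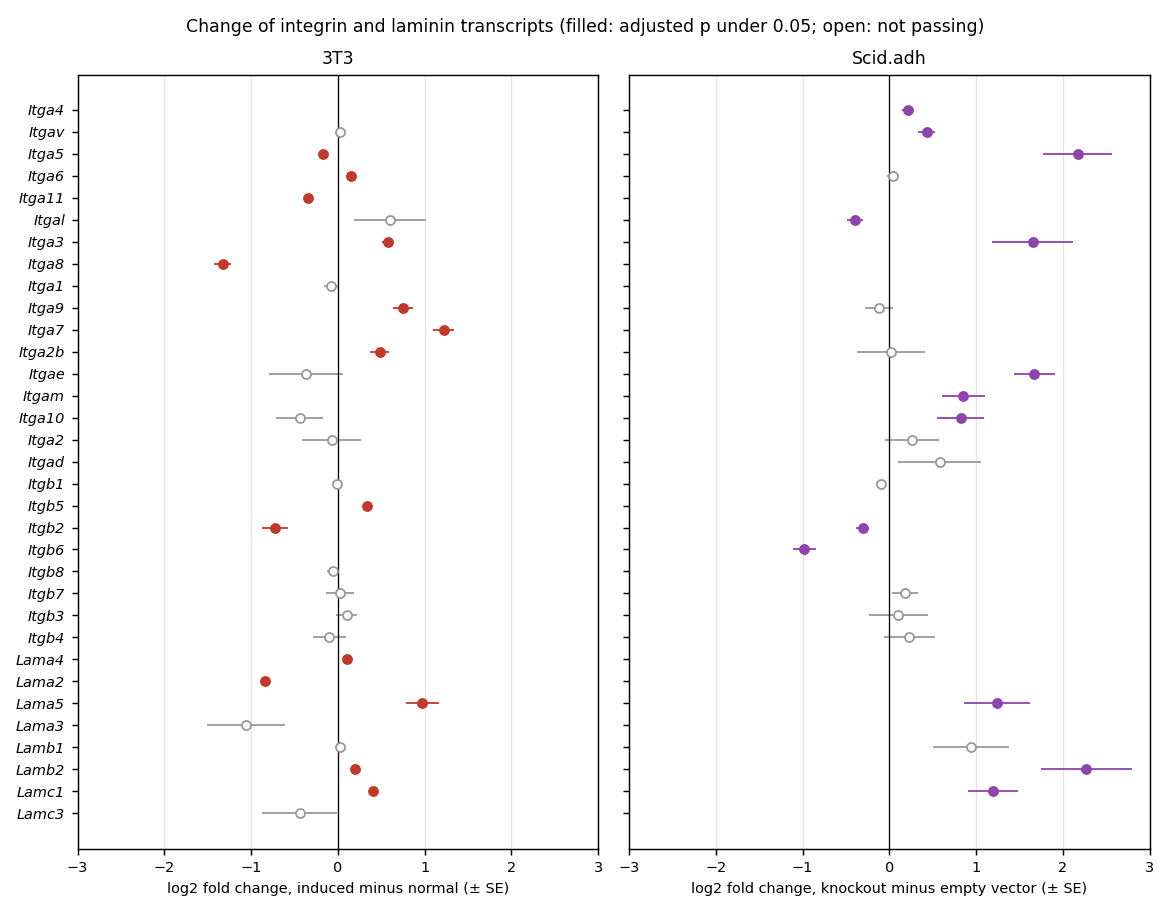
Log2 fold change with SE of members tested in at least 1 line (left, induced minus normal 3T3; right, knockout minus empty-vector Scid.adh; filled points passed an adjusted p of 0.05). Itga8 at -1.33 and Itga7 at 1.22 mark the ends in 3T3, and Itgb6 at -0.98 and Lamb2 at 2.27 the ends in Scid.adh.

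Induction raises and knockout lowers TCF-1, and 1 member was called in opposite directions. Of the 37 members, 4 rose in both lines (Itga3, Lama5, Lamb2 and Lamc1), Itgb2 fell in both, and Itga5 fell on induction and rose in the knockout. Of all 11038 genes tested in both lines, 2.6% rose in both, 3.17% fell in both, 3.06% fell on induction and rose in the knockout, and 4.77% rose on induction and fell in the knockout, beside 4, 1, 1 and 0 of the 20 members tested in both. Of the 4 members that rose in both, Itga3, Lama5 and Lamb2 passed the Scid.adh filter through the knockout alone and lost their Scid.adh call in DESeq2. Itga5 also passed that filter through the knockout alone, and its log2 fold change in 3T3 was -0.17. A test of the difference between the responses of the lines (3T3 response minus Scid.adh response, in a joint fit of all 8 libraries) passed for 11 of 33 members, against 30.7% of all 15854 genes in that fit (14.6% positive and 16.1% negative). For Itga5 the difference was -2.34 (SE 0.35, adjusted p = 2.97e-06), for Itga9 0.87 (SE 0.19, adjusted p = 7.85e-04) and for Itgav -0.41 (SE 0.09, adjusted p = 9.03e-04). Lamb2 rose in both lines but by 2.08 less in 3T3 (difference -2.08, SE 0.50, adjusted p = 0.00154), and Lamc1 by 0.79 less (difference -0.79, SE 0.20, adjusted p = 0.00318). The Lamc1 difference was -0.43 without knockout replicate 1 and no longer passed (adjusted p = 0.248).

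Partners and ligands of integrins were counted in 5 lists beside the 36.8% of all tested genes that were called in 3T3 and their median of 0.00. Of 35 tested adaptors and activators, which link β tails to actin and signalling, 16 rose and 4 fell, with a median log2 fold change of 0.11. The adaptor rises numbered 9 without normal replicate 2, 10 in DESeq2 and 7 in the joint fit, while no other list count in 3T3 moved by more than 1.5 times outside the test against 1.5-fold. Nedd9, a scaffold of focal adhesions, had 108 and 110 CPM in induced cells, against 76.3 and 76 CPM in normal cells (log2 fold change 0.52, SE 0.05), and the actin crosslinker Actn1 had 787 and 752 CPM, against 554 and 543 CPM in normal cells (0.49, SE 0.03). Apbb1ip (RIAM), which brings talin to integrins, had 43.9 and 48.9 CPM in induced cells, against 87.5 and 85.1 CPM in normal cells (-0.90, SE 0.06). The kindlin Fermt2 had 137 and 139 CPM in induced cells, against 181 and 182 CPM in normal cells (-0.39, SE 0.04). Of 17 tested matrix ligands, 5 rose and 8 fell, with a median of -0.06. Periostin, Postn, had 183 and 192 CPM in induced cells, against 790 and 792 CPM in normal cells (-2.08, SE 0.04), and Edil3 had 15 and 13.3 CPM, against 56.4 and 55.7 CPM in normal cells (-1.98, SE 0.08). The fibrillin Fbn1 went the other way, with 691 and 682 CPM in induced cells, against 304 and 310 CPM in normal cells (1.16, SE 0.03). Nephronectin, Npnt, the ligand of the α8β1 receptor whose α chain fell, had 28 and 30.7 CPM in induced cells, against 14.1 and 13.5 CPM in normal cells (1.08, SE 0.09).

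Of 7 tested cell-surface counter-receptors in 3T3, 3 rose and none fell. Vcam1, the ligand of α4β1 and α9β1, had 351 and 365 CPM in induced cells, against 167 and 168 CPM in normal cells (1.09, SE 0.04), and Thy1 had 142 and 141 CPM, against 98 and 88.1 CPM in normal cells (0.61, SE 0.05). Of 20 basement membrane genes, all tested, 9 rose and 4 fell, with a median of 0.09. The collagen IV genes had the largest rises, Col4a1 with 1678 and 1611 CPM in induced cells, against 461 and 446 CPM in normal cells (1.86, SE 0.03), and Col4a2 with 977 and 916 CPM, against 299 and 299 CPM in normal cells (1.66, SE 0.03). Smoc2 had 25 and 22.8 CPM in induced cells, against 47.5 and 46.6 CPM in normal cells (-0.97, SE 0.07), and Smoc1 30.8 and 30.9 CPM, against 46.9 and 46.8 CPM in normal cells (-0.60, SE 0.07). Of 9 tested membrane partners, 3 rose and 3 fell. Cd151, the tetraspanin bound to α3β1 and α6β1, had 66.3 and 67 CPM in induced cells, against 34.3 and 38.2 CPM in normal cells (0.87, SE 0.06), and Cd9 had 99.1 and 96.9 CPM, against 78.1 and 78.2 CPM in normal cells (0.33, SE 0.05). Cd47 had 141 and 152 CPM in induced cells, against 200 and 211 CPM in normal cells (-0.49, SE 0.04), and Slc3a2, the CD98 heavy chain that binds β tails, had 173 and 163 CPM, against 193 and 184 CPM in normal cells (-0.16, SE 0.04).

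In Scid.adh, where 31.5% of all tested genes were called, these lists gave 8 rises and 9 falls of 29 tested adaptors, 4 rises and 1 fall of 8 matrix ligands, 0 rises and 2 falls of 6 counter-receptors, 5 rises and 1 fall of 11 basement membrane genes, and 1 rise and 2 falls of 8 membrane partners. All 4 rising matrix ligands (Ccn1, Col1a1, Col1a2 and Mfge8) passed the filter through the knockout libraries alone. So did 4 of the rising adaptors (Bcar1, Fermt2, Parvb and Src) and 2 of the rising basement membrane genes (Col4a1 and Ntn4). The rising membrane partner Cd63 did too. Jam3, 1 of the 2 falling counter-receptors, passed through the empty-vector libraries alone (0.73 and 0.475 CPM in knockout cells, against 2.32 and 1.17). Col1a1 and Col1a2 are among the fibroblast markers above. Most of these counts depended on single libraries: without empty-vector replicate 1, rises numbered 2 among adaptors and 2 among basement membrane genes, and without empty-vector replicate 2, 4 among adaptors and 1 among matrix ligands. Without knockout replicate 1, basement membrane rises numbered 3, membrane partner rises 2 and matrix ligand falls 0. The single basement membrane fall was lost without knockout replicate 2 or either empty-vector replicate, the counter-receptor falls numbered 1 without knockout replicate 2 or empty-vector replicate 1, and the membrane partner falls 1 without any single one of knockout replicate 2 and the empty-vector replicates. In DESeq2, rises numbered 3 among adaptors, 1 among matrix ligands and 2 among basement membrane genes. Nedd9 had 4.99 and 6.41 CPM in knockout cells, against 24.7 and 23.7 CPM with the empty vector (log2 fold change -2.08, SE 0.18, adjusted p = 5.06e-06), and Actn1 had 178 and 188 CPM, against 290 and 294 CPM with the empty vector (-0.68, SE 0.06, adjusted p = 9.09e-06). Thy1, a thymocyte surface protein, had 397 and 365 CPM in knockout cells, against 554 and 589 CPM with the empty vector (-0.59, SE 0.06, adjusted p = 4.24e-05). Of the 58 listed genes tested in both lines, 9 rose in both (15.5%, against 2.6% of all 11038 genes tested in both). Another 2, Pxn and Slc3a2, fell in both (3.45%, against 3.17%). Nedd9, Actn1, Thy1, Agrn, Jam3 and Tln1 rose on induction and fell in the knockout (10.3%, against 4.77%). Bcar1, Cd63, Fermt2 and Mfge8 fell on induction and rose in the knockout (6.9%, against 3.06%). These 4, and Col1a1, Col4a1, Parvb and Src among the 9, passed the Scid.adh filter through the knockout alone. The lists were chosen with earlier results of these data known, so these shares only describe the listed genes. The focal adhesion kinase Ptk2 had 70.9 and 69.2 CPM in knockout cells, against 52.4 and 57.7 CPM with the empty vector (0.35, SE 0.09, adjusted p = 0.0109), and Lims1 (PINCH1) had 143 and 161 CPM, against 125 and 124 CPM with the empty vector (0.29, SE 0.07, adjusted p = 0.0109). Mfge8, an RGD-bearing ligand of αv integrins, had 7.78 and 6.41 CPM in knockout cells, against 0.806 and 0.32 CPM with the empty vector (3.61, SE 0.41, adjusted p = 4.87e-05). Tgfb1, whose latent form binds αv integrins, had 11.9 and 15.1 CPM in knockout cells, against 20.4 and 20.6 CPM with the empty vector (-0.60, SE 0.16, adjusted p = 0.0132). Among basement membrane genes, Col15a1 had 42.9 and 42.8 CPM in knockout cells, against 24 and 23 CPM with the empty vector (0.87, SE 0.11, adjusted p = 1.48e-04), and Fbln1 had 15.6 and 15 CPM, against 9.57 and 11 CPM with the empty vector (0.57, SE 0.17, adjusted p = 0.0244). Agrn, agrin, had 47.4 and 45.2 CPM in knockout cells, against 57.5 and 57.1 CPM with the empty vector (-0.31, SE 0.09, adjusted p = 0.0233). The tetraspanin Cd82 had 14 and 12.7 CPM in knockout cells, against 17.6 and 20 CPM with the empty vector (-0.49, SE 0.16, adjusted p = 0.0309), and Slc3a2 had 124 and 131 CPM, against 149 and 148 CPM with the empty vector (-0.22, SE 0.07, adjusted p = 0.0269).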

How the data were processed

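RNA was measured in 8 libraries. The values are raw counts per Ensembl gene as deposited by the authors, 1 file per library. Per the labels' protocols, RNA was isolated with the RNeasy Plus Micro Kit, and libraries were made with the SMARTer Stranded Total RNA-Seq Pico kit for paired reads on a NextSeq. Aligner, counter and build were STAR 2.5.0a, HTSeq 0.6.1 and GRCm38, per the submitters' processing notes, which do not say which files HTSeq made; the 3T3 files are not in its own layout. The sources used here give neither annotation release nor strand setting nor how duplicates were treated. The 3T3 files hold 53465 genes and the Scid.adh files 31053. Summary rows, found in the Scid.adh files alone, were left out. Of all reads there, 22.3% and 25.8% (knockout) and 21.3% and 21.6% (empty vector) were counted as having no feature. A further 2.2% to 2.44% were ambiguous.

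Symbols, exon lengths and overlaps came from GENCODE M21. Each line was filtered with filterByExpr, scaled by TMM and tested by quasi-likelihood F-tests in edgeR with robust dispersions (edgeR 4.0.16, limma 3.58.1, R 4.3.3) with Benjamini-Hochberg adjustment over all tested genes and a call at 0.05. The common biological coefficient of variation in edgeR, which leaves out counting error, was 2.41% in 3T3 and 5.94% in Scid.adh. SE is the log2 fold change over the root of F. Differences between lines were tested in a joint fit of 8 libraries. In simulated data with planted changes, the fits found 40% of 1.25-fold changes in 3T3 and 15.2% in Scid.adh. They found 59.6% and 52.6% of 1.5-fold, 74.1% and 76.6% of 2-fold, and 95.6% and 90.9% of 4-fold changes. Genes without a planted change gave 3 calls in 3T3 and 5 in Scid.adh. A gene that did not pass may therefore still have changed. Alternatives were limma-voom and DESeq2 (1.42.0) as tests, upper-quartile or DESeq2 size factors as scaling, no filter or a minimum mean of 1 CPM, a block on replicate number, leaving out single libraries, the joint fit, a test against 1.5-fold, presence at 0.5 or 5 CPM and the longest transcript as length. Python 3.11.15 (matplotlib 3.10.9, NumPy 2.4.6, pandas 2.3.3, SciPy 1.17.1) made tables and figures.

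The members and lists were chosen with earlier results of these data known. Members called in a line or averaging 5 CPM in a group were described in full, each list by its 2 largest called rises and 2 largest called falls per line among genes at 5 CPM or more in a group. Promoters of the largest rise and fall per line were to be shown, but Itga7 and Itgae had no window. Values of 1 member are not reported here, though it is part of the counts.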

Additional observations from a re-analysis of the deposited data

Results flagged for a closer look

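The response to TCF-1 induction in 3T3 minus the response to the knockout in Scid.adh passed an adjusted p of 0.05 (edgeR's quasi-likelihood test, all 8 libraries) for 11 members, against 30.7% of all genes in that fit. Of these, 7 were tested in both lines. Itga5, the fibronectin receptor chain, fell on induction and rose in the knockout (difference -2.34, adjusted p = 2.97e-06). It passed the Scid.adh filter through the knockout alone, as did Lamb2. Itgav (-0.41, adjusted p = 9.03e-04), Itgae (-2.03, SE 0.51, adjusted p = 0.00229) and Itga10 (-1.26, SE 0.38, adjusted p = 0.0108) were called higher in the knockout and were not called in 3T3. The Itga10 difference did not pass without induced replicate 1 (adjusted p = 0.0668) or without normal replicate 2 (adjusted p = 0.0615). Itga9 (0.87, adjusted p = 7.85e-04) was called higher on induction and was not called in Scid.adh. Lamb2 (-2.08, adjusted p = 0.00154) and Lamc1 (-0.79, adjusted p = 0.00318) were called higher in both lines, and Lamc1 did not pass without knockout replicate 1 (adjusted p = 0.248).

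The other 4 were too low to be tested in a line, so their counts are given in place of a fitted difference. Itga1 (adjusted p = 0.00561) had 7 and 8 counts in knockout cells, against 2 and 0 with the empty vector, and no longer passed without empty-vector replicate 2 (adjusted p = 0.0682). Lama2 (adjusted p = 0.0173) had 3 and 1 counts in knockout cells, against 0 and 0 with the empty vector, and no longer passed without knockout replicate 1 (0.178) or without empty-vector replicate 1 (0.0718) or 2 (0.0629). Lama3 (adjusted p = 0.00526) had 13 and 2 counts in knockout cells, against 1 and 1 with the empty vector, and no longer passed without knockout replicate 1 (adjusted p = 0.351). Itgad (adjusted p = 0.0295) had 0 and 0 counts in induced cells, against 2 and 4 in normal cells, and 16 and 10 counts in knockout cells, against 7 and 13 with the empty vector. It was not called without either induced replicate (adjusted p = 0.144 and 0.107), normal replicate 2 (0.147), knockout replicate 1 (0.057) or empty-vector replicate 1 (0.0694).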

How the results depend on the processing

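Over all settings, 1042 recomputed member values kept their side of the threshold, 69 lost a call, 11 gained one and no called value changed sign; 22 of the 1042, none of them called, had the other sign. Calls of Itga7, Itga8 and Lama2 in 3T3 and of Itga5, Itgae and Itgb6 in Scid.adh were made in every setting. A test against 1.5-fold called 1 rise and 2 falls in 3T3, and 3 rises and 1 fall in Scid.adh. DESeq2 called 4 rises in Scid.adh. Without 1 library, rises ranged over 8 to 10 and falls over 4 to 6 in 3T3, rises over 4 to 9 and falls over 3 to 4 in Scid.adh, and differences between lines over 8 to 13. Over all tested genes, deviations of same-numbered libraries correlated at 0.03 in 3T3 and -0.01 in Scid.adh. Counting error in low genes enters these values, so they do not settle whether the replicate numbers pair the samples. A block on the replicate number gave 3633 rises and 3577 falls over all genes in 3T3, against 3361 and 3332 without it. In Scid.adh the block gave 2028 and 2010, against 1861 and 1899. With the replicate number as a block, 10 members rose and 6 fell in 3T3 (Lama3 gained a call, adjusted p = 0.035), 10 rose and 3 fell in Scid.adh, and 12 differed between lines. Of 260 recomputed list counts, 52 moved by more than 1.5 times. At 5 CPM, pairs with both chains numbered 10 in knockout and 7 in empty-vector cells, and 13 in each 3T3 group. Over all genes, Scid.adh had 1861 rises and 1899 falls by TMM but 2455 and 1215 by upper-quartile factors, while DESeq2 gave 880 and 1080 there and 1977 and 2035 in 3T3, against 3361 and 3332. Members near 1 CPM rest on few reads: 3 counts were 0.356 to 0.365 CPM in knockout and 0.302 to 0.32 CPM in empty-vector libraries, a limit that covers counting error only.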

Other observations

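Itgbl1, an integrin-like gene that encodes neither chain of a receptor, had 16.8 and 18.2 CPM in induced 3T3 cells, against 57.6 and 62.8 CPM in normal cells, a log2 fold change of -1.79 in edgeR's fit. The gene model Gm49368, which overlaps Itgam, had 0.851 and 1.78 CPM in knockout Scid.adh cells, against 1.01 and 0.32 CPM with the empty vector.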
